A study of Mus musculus with 15 samples.

Results

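Nuclear receptors are transcription factors that bind short DNA elements and, in many cases, are switched by a small lipophilic ligand such as a fatty acid, an oxysterol, a retinoid, a steroid or thyroid hormone. Many of them act on DNA with a retinoid X receptor (RXR) as partner, and they recruit coactivators or corepressors that open or close chromatin. In adipocytes they link hormones and dietary lipids to lipid storage, oxidation and differentiation. A list of 36 nuclear receptor genes, chosen by name, was examined in cultured white adipocytes kept for 0, 1 or 12 days at a cool temperature. The list is not the whole superfamily, and Pparg is not on it. Of the 36 genes, 35 were among the 18804 genes of the count table and Nr0b2 was not listed there, and 28 had enough counts to be tested.

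The cells were adipocytes grown from mesenchymal stem cells of C57BL/6J mice, which the study isolated from ears. The strain is the only genotype the labels give, and it was shared by the 3 groups. Adipogenesis was induced at 37°C with methylisobutylxanthine, a phosphodiesterase inhibitor that raises cAMP, dexamethasone, a ligand of the glucocorticoid receptor, insulin and troglitazone, a thiazolidinedione, and from day 4 all cells received serum only. Every culture was harvested on day 16 of differentiation. Cells of the day 12 group had been shifted to 31°C on day 4 and those of the day 1 group on day 15, while day 0 cells never left 37°C. The time at 31°C and the stage of differentiation at which cells were moved thus changed together and cannot be told apart. Each group had 5 libraries, and it was not stated whether these came from separate mice or dishes, so the p-values measure the spread between these libraries, which may be technical.

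Total counts were 92387376 to 133270973 at day 0, 74430465 to 105322757 at day 1 and 64648178 to 91338649 at day 12. No library was so close to another of its own group as to be a repeat of it, and pairs across groups were not checked. The adipocyte label was checked with 7 markers (Adipoq, Plin1, Fabp4, Cidec, Lpl, Cebpa and Retn), all of which were detected, and whose summed level was 4093 to 4704 CPM at day 0, 5069 to 5629 CPM at day 1 and 4367 to 4908 CPM at day 12. Single markers moved in both directions. Cidec, a lipid droplet protein, was called lower at both days by edgeR, at log2 fold changes of -2.62 and -1.58, and Adipoq, which encodes adiponectin, was called lower at day 12, at -1.24, from 1095 to 464.3 CPM. Fabp4, a fatty acid carrier, was called higher at both days, at 0.76 and 0.97, as was Retn, which stayed below 1 CPM on average and whose day 1 call was lost with scaling by the reference genes. CPM here is the read count scaled to a common library size by TMM. Markers of stromal progenitors summed to 1289 to 1360, 1365 to 1426 and 1110 to 1144 CPM in the same order, and those of chondrocytes to 266.2 to 325.5, 263.6 to 298.9 and 234.0 to 297.4 CPM, whereas the epithelial and muscle lists reached at most 0.167 and 0.381 CPM in any library and the endothelial list at most 1.47 CPM. The 4 proliferation genes (Mki67, Top2a, Ccnb1 and Cdk1) summed to 47.0 to 57.2 CPM at day 0, 55.1 to 65.5 CPM at day 1 and 138.2 to 166.4 CPM at day 12. The mesothelial list, mainly through Msln, was at 1.34 to 1.99 CPM at days 0 and 1 and at 23.0 to 37.9 CPM at day 12. The macrophage list was at 7.46 to 10.1 CPM at day 0, 10.7 to 13.9 CPM at day 1 and 7.24 to 8.11 CPM at day 12. These shifts in proliferation and marker genes run with the day 1 and day 12 results given here, and their part in them was not tested. In such bulk RNA a lower level of a receptor can mean fewer cells that express it or less RNA per cell, and these cannot be told apart.

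Promoters of the NR4A genes are shown first because these 3 receptors, though close relatives, gave different courses at 31°C. NR4A receptors (Nr4a1, Nr4a2 and Nr4a3, also known as Nur77, Nurr1 and Nor1) have no settled ligand, so that their activity is set largely by how much is made. They are classical immediate early genes, induced in many cells through cAMP and the factor CREB, which binds a cAMP response element whose core reads TGACG. The sequences run 5′ to 3′ on the gene's strand, from 250 bases before the RefSeq start site to 50 bases after it, in GRCm38.p6, and capitals mark TGACG or, for a match on the other strand, CGTCA.
Nr4a1, chr15:101266596-101266895, plus strand: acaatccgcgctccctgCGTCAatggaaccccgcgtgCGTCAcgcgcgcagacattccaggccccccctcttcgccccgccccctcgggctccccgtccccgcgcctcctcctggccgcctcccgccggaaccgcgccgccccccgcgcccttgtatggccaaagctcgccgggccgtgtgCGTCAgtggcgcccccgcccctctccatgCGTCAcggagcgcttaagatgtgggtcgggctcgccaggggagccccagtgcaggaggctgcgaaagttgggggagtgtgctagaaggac
Nr4a2, chr2:57123954-57124253, minus strand: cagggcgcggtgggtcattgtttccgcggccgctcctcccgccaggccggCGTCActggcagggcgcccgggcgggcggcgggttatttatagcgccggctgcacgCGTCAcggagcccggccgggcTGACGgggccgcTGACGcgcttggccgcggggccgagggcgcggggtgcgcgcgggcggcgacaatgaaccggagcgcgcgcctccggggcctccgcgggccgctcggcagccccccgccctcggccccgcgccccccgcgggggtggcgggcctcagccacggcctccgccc
Nr4a3, chr4:48045055-48045354, plus strand: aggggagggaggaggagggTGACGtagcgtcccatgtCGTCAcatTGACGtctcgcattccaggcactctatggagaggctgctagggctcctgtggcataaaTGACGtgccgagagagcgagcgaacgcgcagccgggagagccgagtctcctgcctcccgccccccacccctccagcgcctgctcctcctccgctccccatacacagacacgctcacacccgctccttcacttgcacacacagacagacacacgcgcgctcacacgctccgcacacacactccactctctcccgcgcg
Each of these 3 windows held 4 matches to TGACG, none overlapping another, which began 40 to 233 bases before the start in Nr4a1, 111 to 200 in Nr4a2 and 147 to 231 in Nr4a3. All 4 in Nr4a1 lay on the strand opposite the gene, Nr4a2 had 2 on each strand, and Nr4a3 had 3 on its own strand and 1 opposite. Of 32817 promoter windows of the same length, 20.8% held at least 1 match and 0.232% (76 windows) held 4 or more. Over the receptors as a whole, 34 of the 36 genes had windows used here, 53 in all, and 15 of these (28.3%) held a TGACG. The core motif of nuclear receptor elements, AGGTCA, was in 9 of the 53 windows (17.0%), against 16.3% of all windows, and in none of the 3 NR4A windows. These matches describe the sequence only, and no binding was measured.

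Which receptors these adipocytes expressed was asked first. With expressed taken as passing the count filter and a mean of at least 1 CPM in at least 1 group, 26 of the 36 were expressed, 2 passed the filter at lower levels (Rarb and Nr5a2), 7 did not pass it and 1 was not listed. The 7 below the filter were Nr1h4, the bile acid receptor FXR, Nr1i3, the xenobiotic sensor CAR, Hnf4a, a receptor of liver and gut, Pgr, the progesterone receptor, the oestrogen-related receptors Esrrb and Esrrg, and Nr0b1, which lacks a DNA-binding domain. Their highest counts in any library were 3, 4, 3, 6, 5, 17 and 2, in that order, and 74.9% of the exon bases of Nr1i3 are shared with Tomm40l on the opposite strand. A library with a count of 0 can hide a level of up to 0.0238 CPM at the largest depth and 0.0428 CPM at the smallest, by counting error only.

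Levels of different receptors were compared per length, as RPKM (CPM per kilobase of the gene's exons). Among the 26 expressed receptors of the list, Rxra, the RXR that partners many of the others, had the most transcript in each group. It stood at 44.5 ± 1.22 RPKM (SD, n = 5) at day 0, 57.9 ± 0.576 at day 1 and 39.8 ± 2.25 at day 12, and its range did not overlap that of the receptor ranked next in any group. At day 0 it was followed by Rarg, a retinoic acid receptor, at 29.8 RPKM, Thra, a thyroid hormone receptor, at 27.7, Nr3c1, the glucocorticoid receptor, at 25.98, and Nr1h2, the oxysterol receptor LXR beta, at 24.7, and each neighbouring pair among these 4 had overlapping ranges. These 5 genes held the first 5 places in all 3 groups. Next at day 0 came Nr4a2 at 21.0 and Rara at 17.8 RPKM, while Nr4a1 was at rank 10 with 8.47 RPKM. At day 1 Nr4a1 was at rank 6 with 18.9 ± 2.46 RPKM and Nr4a2 at rank 7 with 15.9 ± 1.18 RPKM, and their ranges overlapped. The lower end held Nr3c2, the mineralocorticoid receptor, Ppara, Nr6a1, Rorb and Nr4a3, which reached at most 0.583 RPKM in any library. Over the 26 receptors, 17 of the 25 neighbouring pairs at day 0 had overlapping ranges, as did 14 at day 1 and 14 at day 12, so that much of the finer order is not resolved.

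**Figure D1:**
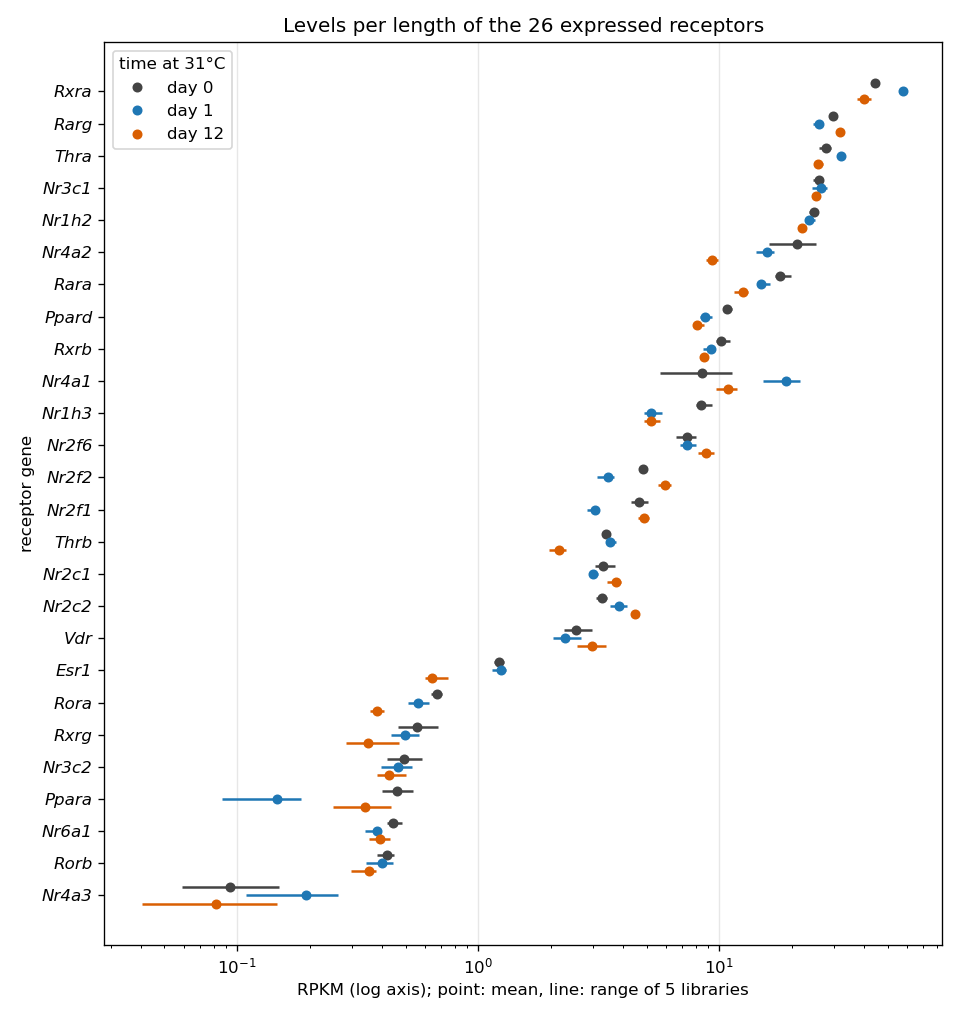
Levels of the 26 expressed receptors in RPKM on a log axis, ordered by their mean at day 0, with points for the mean and lines for the range of the 5 libraries of each group. Rxra lies at the top in all groups at 39.8 to 57.9 RPKM, and Nr4a1 and Nr4a2 trade places between day 0 and day 1.

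The effect of 31°C was then asked for all 28 receptors with the quasi-likelihood test of edgeR, and calls needed both a fold over 1.5 and a p under 0.05 after Benjamini-Hochberg adjustment over the 14293 genes tested. After 1 day 2 receptors were called higher and 4 lower (6 of 28), where 21.1% of all genes were called, 7.71% higher and 13.4% lower. After 12 days 0 were called higher and 7 lower by edgeR, where 29.2% of all genes were called, 13.0% higher and 16.2% lower. Beside the 0 higher there, 7 receptors were higher at an unadjusted p under 0.05, and DESeq2 also called 0 higher. Between day 1 and day 12, 3 were called higher and 5 lower at day 12, where 19.1% of all genes were called, 10.6% higher and 8.53% lower. By the adjusted p alone, without the fold limit, edgeR placed 5 receptors higher and 13 lower at day 1, where 71.5% of all genes passed (35.3% higher and 36.2% lower). On the same terms 7 were higher and 16 lower at day 12, where 76.6% of all genes passed (39.2% and 37.4%), and 8 were higher and 13 lower between day 1 and day 12, where 67.2% passed (34.3% and 32.8%). The median log2 fold change of the 28 was -0.14 at day 1, -0.19 at day 12 and -0.10 from day 1 to day 12, beside -0.0088, 0.012 and 0.0092 over all genes. Both comparisons with day 0 share the same control libraries. Scaling by total counts alone moved the median of all genes to 0.21 at day 12 and left 1 receptor called higher and 3 lower there, and the share of lower calls among all called genes then was 35.9% in place of 55.6%. Scaling by the reference genes Hprt, Tbp and Ppia moved the median of all genes at day 1 to -0.11, with lower calls at 75.8% in place of 63.5%. From day 1 to day 12 lower calls made up 44.7%, or 27.3% when scaled by total counts and 29.0% when scaled by the reference genes. No called receptor changed direction under any of these scalings.

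**Figure D2:**
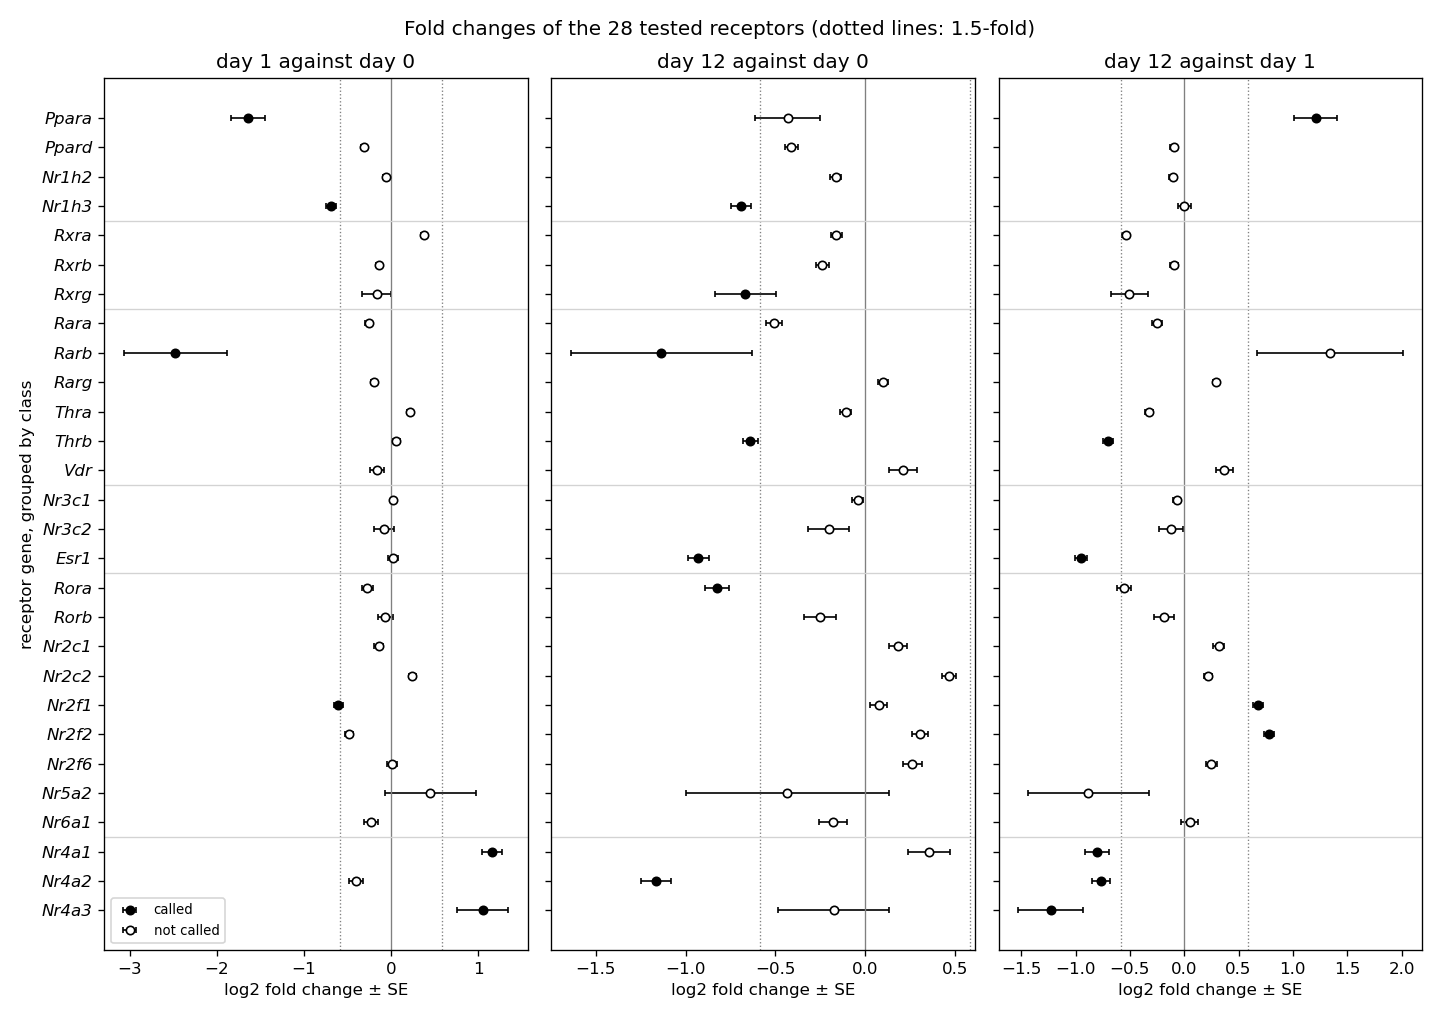
Log2 fold changes with their standard errors from edgeR for the 28 tested receptors in the 3 comparisons, grouped by class (metabolic, RXR, retinoid and thyroid, steroid, orphan and NR4A), with filled points for called genes and dotted lines at a fold of 1.5. At day 1 the calls spread to both sides, and at day 12 against day 0 all 7 filled points lie left of 0.

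The NR4A receptors did not move as one. Nr4a1 (chr15:101254269-101274795) and Nr4a3 (chr4:48045153-48086447) were higher after 1 day at 31°C and lower again at day 12, while Nr4a2 (chr2:57106830-57124003) was not raised at day 1 and was lower at day 12. Nr4a1 stood at 32.2, 19.9, 25.9, 31.1 and 39.5 CPM in the day 0 libraries 1 to 5, at 53.1, 65.03, 65.3, 71.2 and 76.2 CPM at day 1 and at 34.1, 35.6, 40.6, 41.7 and 37.98 CPM at day 12. All 5 day 1 libraries lay above every library of the other groups, and the day 0 and day 12 ranges overlapped. The increase at day 1 was a log2 fold change of 1.16 ± 0.12 (SE; edgeR adjusted p = 3.13e-09) and the drop from day 1 to day 12 was a log2 fold change of -0.80 ± 0.11 (SE; edgeR adjusted p = 1.27e-06). At day 12 Nr4a1 differed from day 0 by only 0.35 ± 0.12 on the log2 scale (SE; edgeR adjusted p = 0.00834), which is under the fold limit.

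Nr4a2 stood at 86.4, 65.2, 76.03, 95.2 and 103 CPM at day 0, at 57.9, 66.1, 60.8, 68.8 and 68.1 CPM at day 1 and at 35.7, 38.2, 39.8, 40.1 and 36.04 CPM at day 12. The day 12 libraries all lay below the others, and the ranges of day 0 and day 1 overlapped. Nr4a2 fell by day 12 against day 0, with a log2 fold change of -1.17 ± 0.08 (SE; edgeR adjusted p = 3.62e-12), and also against day 1, with a log2 fold change of -0.76 ± 0.08 (SE; edgeR adjusted p = 1.48e-08). Its difference at day 1, -0.40 ± 0.08 on the log2 scale (SE; edgeR adjusted p = 8.94e-05), did not reach the fold limit. Nr4a3 was far lower in level, at 0.587, 0.355, 0.413, 0.546 and 0.895 CPM at day 0, 0.883, 0.653, 1.13, 1.58 and 1.54 CPM at day 1 and 0.471, 0.404, 0.874, 0.242 and 0.465 CPM at day 12, from 17 to 157 counts in a library. The highest day 0 and day 12 libraries overlapped the lowest day 1 libraries. Nr4a3 rose at day 1, with a log2 fold change of 1.05 ± 0.29 (SE; edgeR adjusted p = 0.00264), and fell from day 1 to day 12, with a log2 fold change of -1.23 ± 0.30 (SE; edgeR adjusted p = 0.00092). Within day 0, library 2 was lowest and library 5 highest for all 3 genes, and the coefficient of variation was 24.7% for Nr4a1, 17.5% for Nr4a2 and 37.6% for Nr4a3, against a median of 6.04% over the 26 expressed receptors. By its number in the labels, day 0 library 5 is of a smaller series of 4 libraries. The others are day 1 libraries 4 and 5 and day 12 library 5. Those day 1 libraries were the highest of day 1 for all 3 genes, while day 12 library 5 was not the highest of day 12 for any.

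**Figure D3:**
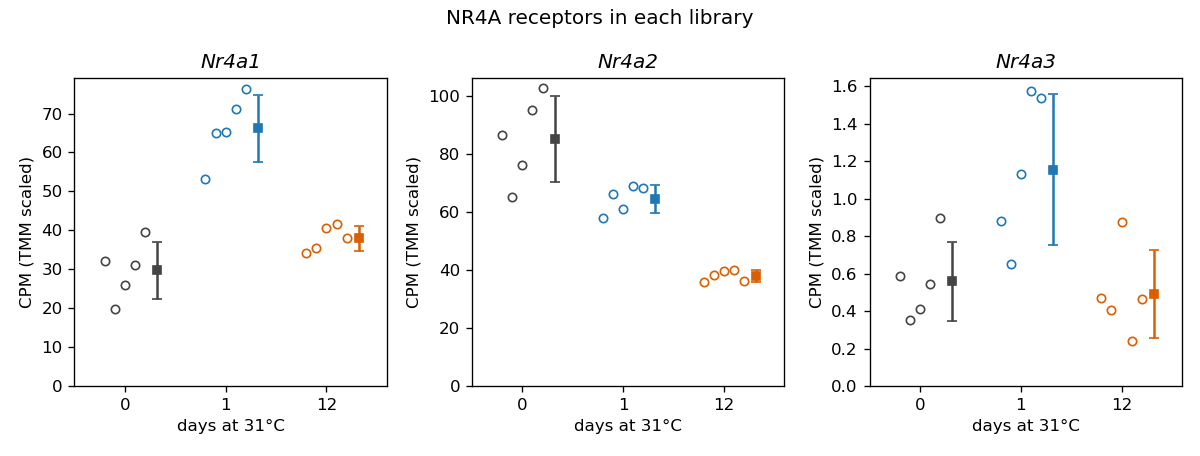
CPM of Nr4a1, Nr4a2 and Nr4a3 in each library against days at 31°C, with open circles for libraries and squares with bars for the mean and SD (n = 5). Nr4a1 and Nr4a3 peak at day 1, at means of 66.2 and 1.16 CPM, and Nr4a2 is lowest at day 12, at 38.0 CPM.

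On the RPKM scale the makeup of the NR4A family thus shifted from Nr4a2 to Nr4a1. Nr4a1 made up 28.5% ± 1.92 (SD, n = 5) of NR4A transcripts at day 0, 53.9% ± 1.86 at day 1 and 53.4% ± 1.35 at day 12, and Nr4a2 made up 71.2%, 45.6% and 46.2%. The ranges of the Nr4a1 share, 26.03 to 30.7% at day 0 and 51.2 to 56.0% at day 1, did not overlap, whereas those of days 1 and 12 did. The summed level of the family was 29.5 ± 5.74 RPKM at day 0, 34.9 ± 3.60 at day 1 and 20.3 ± 1.35 at day 12. The shares were not tested, since they were formed from genes already tested. Other immediate early genes were counted for comparison. Of 9 such genes edgeR called 1 higher and 2 lower at day 1, beside 21.1% of all genes, and 4 higher and 1 lower at day 12, beside 29.2%. At day 1 Atf3 rose, with a log2 fold change of 0.76 ± 0.16 (SE), and Fosb and Crem fell by 1.10 and 0.60 on the log2 scale, the call of Crem being lost with total counts as scaling. At day 12 Egr3 rose by 1.86 and Egr1 by 1.57 on that scale, with Ier2 at 0.63, and Fosb was lower, at -1.29. Egr1, Egr3 and Crem were also called higher at day 12 than at day 1, with log2 fold changes of 1.01, 1.89 and 0.85. Crem encodes the cAMP responsive factors CREM and ICER.

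The COUP transcription factors, orphan receptors often acting as repressors and abundant in mesenchyme, were lowest at day 1. Nr2f1 (chr13:78188973-78199757) stood at 21.9, 25.9, 22.4, 23.8 and 24.2 CPM at day 0, at 15.5, 14.5, 15.9, 15.9 and 15.9 CPM at day 1 and at 25.1, 26.1, 23.9, 25.7 and 23.5 CPM at day 12. Its day 1 libraries all lay below the others, while day 0 and day 12 overlapped. Nr2f1 fell at day 1, with a log2 fold change of -0.60 ± 0.05 (SE; edgeR adjusted p = 3.94e-11), and was higher at day 12 than at day 1, with a log2 fold change of 0.68 ± 0.05 (SE; edgeR adjusted p = 6.29e-12). The call at day 1 sits near the fold limit and was lost without day 0 library 2, at -0.57, or without day 1 library 2, at -0.58. Nr2f2 (chr7:70351944-70366735), the mesenchymal COUP-TFII, stood at 40.3, 42.96, 40.05, 43.4 and 41.8 CPM at day 0, at 31.6, 31.7, 31.2, 26.96 and 28.2 CPM at day 1 and at 49.1, 52.7, 54.6, 52.9 and 48.2 CPM at day 12. The 3 groups did not overlap, with day 1 lowest and day 12 highest. Only the difference of days 1 and 12 was called for it, with a log2 fold change of 0.78 ± 0.05 (SE; edgeR adjusted p = 2.01e-13). Against day 0 its values were -0.48 ± 0.05 on the log2 scale (SE; edgeR adjusted p = 1.29e-09) at day 1 and 0.30 ± 0.04 on the log2 scale (SE; edgeR adjusted p = 1.22e-06) at day 12, both under the fold limit. Of the exon bases of Nr2f2, 7.46% are shared with B130024G19Rik on the opposite strand, and of those of Nr2f1 2.42% with A830082K12Rik, and it was not stated whether counting used strand. Together both genes summed to 9.47 ± 0.463 RPKM at day 0, 6.52 ± 0.212 at day 1 and 10.9 ± 0.438 at day 12. Their shares stayed near even: Nr2f1 made up 48.9% ± 1.07, 46.8% ± 2.58 and 45.0% ± 1.41 of the sum.

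Of the other orphan receptors Rora was the only one called. Rora (chr9:68653786-69388246), which binds ROR elements and takes part in circadian transcription, stood at 8.58, 9.08, 9.24, 9.01 and 8.35 CPM at day 0, at 7.54, 7.28, 8.197, 6.68 and 6.93 CPM at day 1 and at 5.33, 4.64, 4.83, 5.203 and 4.97 CPM at day 12. The groups did not overlap, and each was lower than the one before it. Rora fell by day 12, with a log2 fold change of -0.82 ± 0.07 (SE; edgeR adjusted p = 3.51e-11), whereas at day 1 it differed by -0.27 ± 0.06 on the log2 scale (SE; edgeR adjusted p = 0.000542), and from day 1 to day 12 by -0.55 ± 0.07 on the log2 scale (SE; edgeR adjusted p = 8.9e-08), both under the fold limit. The testicular receptors Nr2c1 and Nr2c2 were at 15.2 and 48.6 CPM at day 0 and at 17.2 and 67.1 CPM at day 12. For Nr2c2 the difference was 0.46 ± 0.04 on the log2 scale (SE; edgeR adjusted p = 4.48e-11), and 31.2% of its exon bases are shared with genes on the opposite strand, mainly Mrps25. With total counts as scaling this was the receptor called higher at day 12, at 0.66. Nr2f6, a relative of the COUP factors, was at 21.9, 22.0 and 26.2 CPM on average, with 54.4% of its exon bases shared with Ocel1 on the opposite strand. Rorb and the germ cell nuclear factor Nr6a1 stayed between 3.89 and 4.82 CPM as group means, and Nr5a2, known as LRH-1, did not exceed 26 counts in any library.

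Among the metabolic receptors, Ppara and Nr1h3 fell at day 1. Ppara (chr15:85734983-85802819), the receptor that turns on fatty acid oxidation genes, was scarce, at 1.84, 1.53, 2.06, 1.797 and 1.58 CPM at day 0, 0.333, 0.708, 0.674, 0.544 and 0.558 CPM at day 1 and 1.67, 1.501, 0.972, 1.43 and 0.961 CPM at day 12. The day 1 libraries, of 26 to 62 counts, lay below all others, and the day 0 and day 12 ranges overlapped. Ppara fell at day 1, with a log2 fold change of -1.64 ± 0.20 (SE; edgeR adjusted p = 6.18e-08), and was higher at day 12 than at day 1, with a log2 fold change of 1.21 ± 0.20 (SE; edgeR adjusted p = 1.05e-05). Against day 0 it was at -0.43 ± 0.18 on the log2 scale (SE; edgeR adjusted p = 0.0319) at day 12. Ppard, the broadly expressed relative of Ppara, was at 81.2 ± 2.31, 65.4 ± 3.13 and 61.1 ± 2.58 CPM and was not called, with log2 fold changes of -0.31 and -0.41 against day 0.

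Nr1h3 (chr2:91184061-91202834), LXR alpha, which senses oxysterols and controls cholesterol efflux and lipogenic genes, stood at 20.2, 21.4, 20.1, 23.4 and 20.5 CPM at day 0, at 12.3, 12.6, 12.6, 13.3 and 14.6 CPM at day 1 and at 14.3, 12.9, 13.4, 12.3 and 12.5 CPM at day 12. All libraries at 31°C lay below all at 37°C, and days 1 and 12 overlapped. Nr1h3 fell at day 1, with a log2 fold change of -0.69 ± 0.06 (SE; edgeR adjusted p = 6.04e-11), and was as low at day 12, with a log2 fold change of -0.69 ± 0.06 (SE; edgeR adjusted p = 4.22e-11). With total counts as scaling the day 12 value was -0.50 and the call was lost. LXR beta (Nr1h2) was at 82.7 ± 2.30, 79.4 ± 2.62 and 73.8 ± 2.47 CPM and was not called, so that the Nr1h3 share of LXR transcripts on the RPKM scale was 25.4% ± 1.57 at day 0, 17.98% ± 0.697 at day 1 and 19.1% ± 1.29 at day 12. The day 0 range of that share, 24.1 to 27.6%, lay above those of day 1 and day 12.

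Genes known as targets of these receptors were counted beside them. Of 6 LXR targets, 0 were called at day 1 and 2 fell at day 12, namely the cholesterol exporters Abca1, at -0.68 ± 0.050 (log2, SE), and Abcg1, at -0.75 ± 0.040, and Abca1 was also called lower at day 12 than at day 1, at -0.59. Beside the 0 at day 1, edgeR gave an unadjusted p under 0.05 for 2 that were higher and 3 that were lower, with folds under the limit, DESeq2 also called 0, and the median log2 fold change of the 6 was -0.17. With total counts as scaling none of these Abca1 and Abcg1 calls was kept, and with the reference genes the call of Abca1 against day 1 was lost. Over all genes 21.1% were called at day 1 and 29.2% at day 12. Of 7 PPAR targets, 2 rose at day 1, Cpt1a, the entry step of mitochondrial fatty acid oxidation, at 0.71 ± 0.038, and Ehhadh, a peroxisomal oxidation enzyme, at 0.61 ± 0.062. At day 12 Cpt1a was called higher, at 0.91, and Pdk4, which restrains pyruvate oxidation, was called lower, at -1.24 ± 0.075. From day 1 to day 12 Pdk4 was also called lower, at -1.18. With scaling by the reference genes the call of Ehhadh was lost. These targets also respond to other factors, and Pparg was not among the receptors examined.

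**Figure D4:**
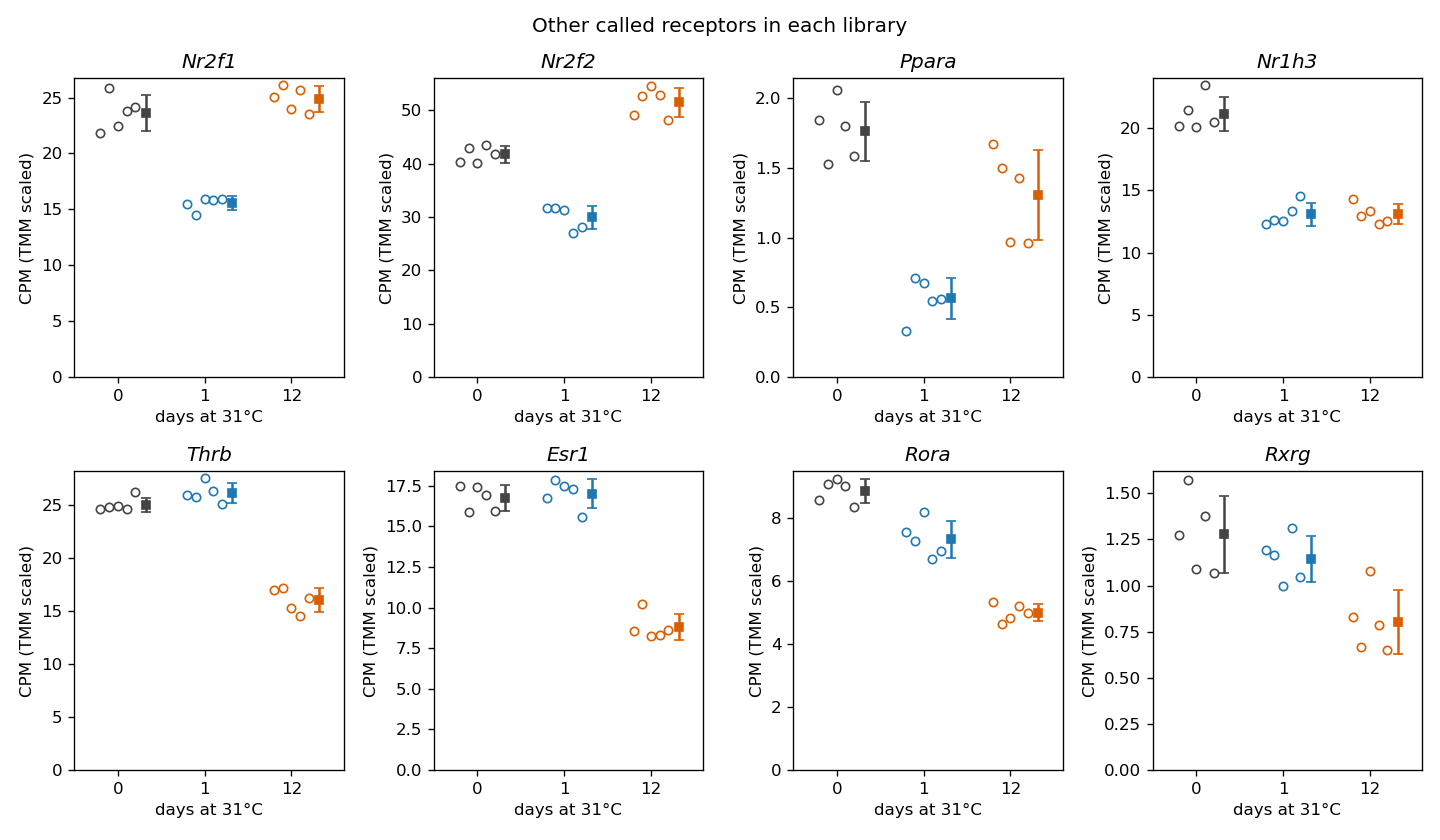
CPM of the 8 other called receptors with a mean of at least 1 CPM, in each library against days at 31°C, with open circles for libraries and squares with bars for the mean and SD (n = 5). Nr2f1, Nr2f2 and Ppara are lowest at day 1, Nr1h3 is low at both days, and Thrb and Esr1 are low at day 12 alone.

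Of the RXR partners Rxrg was called, at day 12 alone, and Rxra and Rxrb were not. Rxra, at 243.0 ± 6.66, 316.0 ± 3.16 and 217.4 ± 12.3 CPM, differed by less than the fold limit: its values were 0.38 ± 0.03 on the log2 scale (SE; edgeR adjusted p = 1.33e-10) at day 1 and -0.16 ± 0.03 on the log2 scale (SE; edgeR adjusted p = 7.15e-05) at day 12, and from day 1 to day 12 it differed by -0.54 ± 0.03 on the log2 scale (SE; edgeR adjusted p = 2.67e-13). The day 1 libraries, at 311 to 319 CPM, lay above all others. Rxrb was at 40.4, 36.6 and 34.2 CPM and was not called. Rxrg (chr1:167598384-167639623), the scarcest of the 3, stood at 1.28, 1.57, 1.09, 1.38 and 1.07 CPM at day 0, 1.19, 1.17, 1.000, 1.31 and 1.05 CPM at day 1 and 0.832, 0.668, 1.08, 0.784 and 0.651 CPM at day 12. The ranges of day 0 and day 12 overlapped through a single day 12 library, and that of day 1 overlapped both. Rxrg fell at day 12 against day 0, with a log2 fold change of -0.67 ± 0.17 (SE; edgeR adjusted p = 0.00104), but without day 0 library 2 the value was -0.58 and with total counts it was -0.48, and neither was called. Rxra made up 80.6% ± 0.504 of RXR transcripts at day 0, 85.6% ± 0.539 at day 1 and 81.6% ± 0.723 at day 12, on the RPKM scale.

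**Figure D5:**
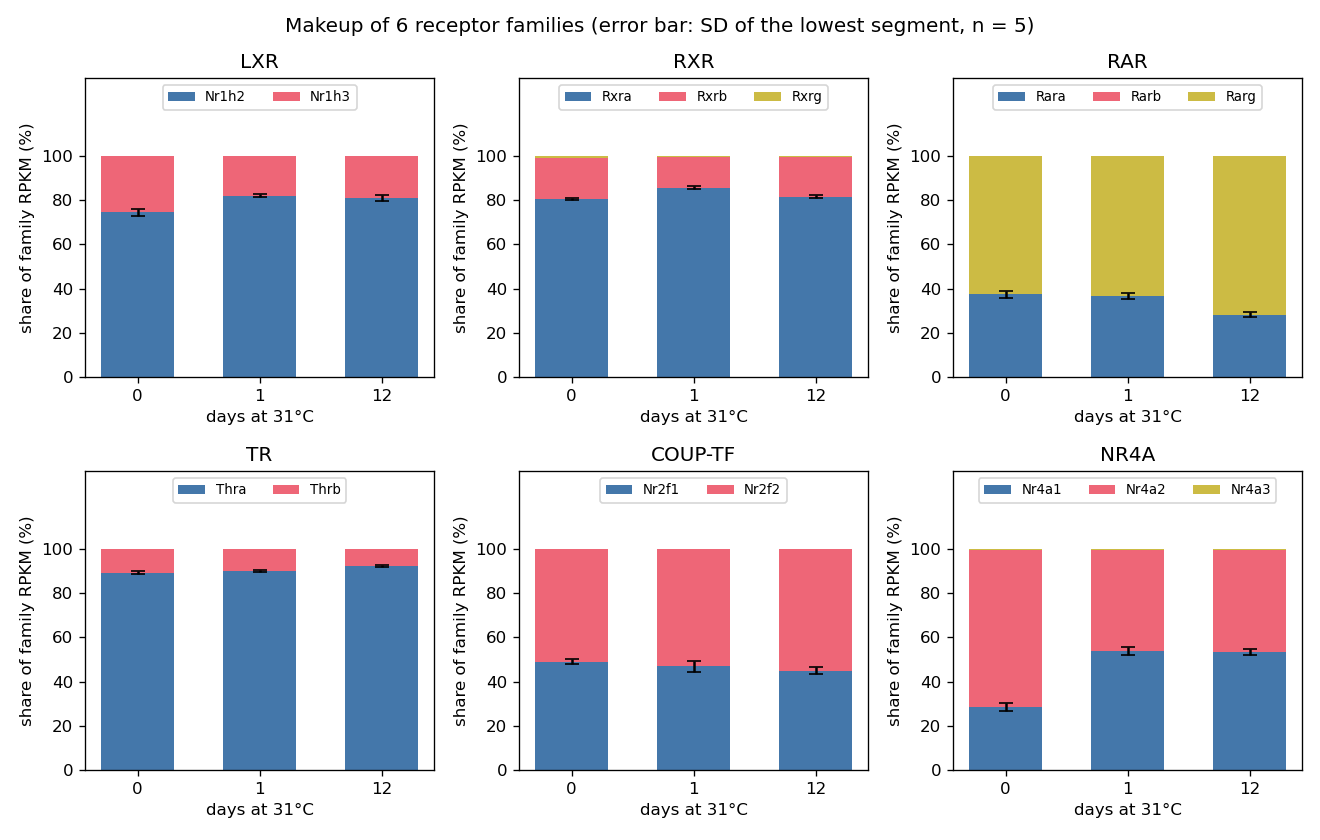
Mean share of each gene in the summed RPKM of 6 receptor families at 0, 1 and 12 days at 31°C, with error bars for the SD of the bottom segment over 5 libraries. The Nr4a1 share goes from 28.5% to 53.9% and 53.4%, and the Nr1h3, Thrb and Rara shares are smaller at day 12 than at day 0.

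Of the 6 thyroid hormone, retinoic acid and vitamin D receptors tested, Thrb and Rarb were called. Thrb (chr14:17660261-18038090), the thyroid hormone receptor beta, stood at 24.6, 24.8, 24.9, 24.6 and 26.2 CPM at day 0, at 25.9, 25.8, 27.5, 26.3 and 25.1 CPM at day 1 and at 16.97, 17.2, 15.3, 14.6 and 16.2 CPM at day 12. All day 12 libraries lay below the others, and days 0 and 1 overlapped. Thrb fell at day 12 against day 0, with a log2 fold change of -0.64 ± 0.04 (SE; edgeR adjusted p = 2e-12), and against day 1, with a log2 fold change of -0.70 ± 0.04 (SE; edgeR adjusted p = 7.97e-13). Both calls were lost with total counts, at -0.45 and -0.53, and with the reference genes, at -0.58 and -0.55. Thra was at 127.8 ± 6.66, 148.2 ± 3.20 and 118.4 ± 3.90 CPM and was not called, and 5.7% of its exon bases are shared with Nr1d1 on the opposite strand. The Thrb share of thyroid receptor transcripts was 10.9% ± 0.676 at day 0, 9.90% ± 0.494 at day 1 and 7.79% ± 0.412 at day 12, on the RPKM scale. Of 4 tested thyroid hormone targets, edgeR called 0 at either day against day 0, where 21.1% and 29.2% of all genes were called. All 4 passed the adjusted p alone at both days, as did 71.5% and 76.6% of all genes, and missed only the fold limit. They were 2 higher and 2 lower at day 1 and 4 lower at day 12, each also at an unadjusted p under 0.05 in edgeR. DESeq2 called 0 at day 1 and 1 lower at day 12. Thrsp, a lipogenic target, was called lower at day 12 than at day 1, at -1.09 ± 0.14 (log2, SE).

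Rarb (chr14:16430839-16819156), a retinoic acid receptor that is itself a target of retinoic acid, was near the limit of detection. It had 16 to 26 counts in the day 0 libraries, 1 to 6 at day 1 and 2 to 21 at day 12, where library 4 held the 21. The day 1 counts were all under those of day 0, and the day 12 range overlapped day 0. The call at day 1, with a log2 fold change of -2.48 ± 0.59 (SE; edgeR adjusted p = 0.000675), and that at day 12, with a log2 fold change of -1.13 ± 0.50 (SE; edgeR adjusted p = 0.0453), rest on these counts, and 38.4% of its exon bases are shared with genes on the opposite strand, mainly Top2b. The day 12 call was lost without any 1 of the 5 day 0 libraries, with values of -1.04 to -1.19. It was also lost without day 1 library 2, 3 or 4, at -1.13 each, and without day 12 library 1, 2, 3 or 5, at -0.89 to -1.08. Without day 12 library 4 the value was -2.03. Rarg and Rara carried nearly all retinoic acid receptor transcripts and were not called. Rara was at 77.9 ± 5.12, 65.2 ± 3.46 and 54.7 ± 2.96 CPM, -0.51 ± 0.04 on the log2 scale (SE; edgeR adjusted p = 1.86e-10) at day 12, and Rarg was at 126.8 ± 2.14, 110.7 ± 4.39 and 135.7 ± 3.49 CPM. On the RPKM scale Rara made up 37.4% ± 1.64 of the family at day 0, 36.5% ± 1.28 at day 1 and 28.2% ± 1.17 at day 12, and its day 12 range of 26.3 to 29.3% lay below those of the other groups. The vitamin D receptor Vdr was at 14.5, 12.95 and 16.7 CPM and was not called.

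Among the steroid receptors Esr1 was called and the corticoid receptors were not. Esr1 (chr10:4611593-5005614), oestrogen receptor alpha, stood at 17.5, 15.9, 17.4, 16.9 and 15.9 CPM at day 0, at 16.8, 17.9, 17.5, 17.3 and 15.6 CPM at day 1 and at 8.59, 10.2, 8.23, 8.296 and 8.61 CPM at day 12. The day 12 libraries all lay below the others, while days 0 and 1 overlapped. Esr1 fell at day 12 against day 0, with a log2 fold change of -0.93 ± 0.06 (SE; edgeR adjusted p = 2.79e-13), and against day 1, with a log2 fold change of -0.95 ± 0.06 (SE; edgeR adjusted p = 4.45e-13), and at day 1 it differed from day 0 by 0.02 ± 0.05 on the log2 scale (SE; edgeR adjusted p = 0.738). The glucocorticoid receptor Nr3c1 was at 199.6 ± 6.15, 203.4 ± 10.3 and 193.9 ± 4.24 CPM, with log2 differences from day 0 of 0.03 ± 0.03 (SE) for day 1 and -0.04 ± 0.03 for day 12, which changed sign with scaling by the reference genes, to -0.07 and 0.01. The mineralocorticoid receptor Nr3c2 was at 3.20 ± 0.402, 3.02 ± 0.419 and 2.77 ± 0.302 CPM and was not called.

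Genes known as glucocorticoid targets were counted beside Nr3c1, which was not called. Of 10 such genes edgeR called 2 higher and 2 lower at day 1, where 21.1% of all genes were called, and 2 higher and 3 lower at day 12, where 29.2% were. Sgk1, a kinase that regulates ion transport, was called higher at both days, at 0.63 and 1.09 (log2), as was Dusp1, a MAP kinase phosphatase, at 0.94 and 0.71. Ddit4, an inhibitor of mTORC1, was called lower at both, at -0.64 and -1.59, and Tsc22d3, known as GILZ, was lower at day 12, at -1.10 ± 0.039 (SE). Errfi1 was called lower at day 1, at -0.62, and Mt2, a metallothionein, at day 12, at -0.98, with 73.5% of the exon bases of Mt2 shared with Gm45774 on the opposite strand. With scaling by the reference genes the day 1 call of Sgk1 was lost. From day 1 to day 12, 2 of the 10 were called higher and 5 lower, where 19.1% of all genes were called, 10.6% higher and 8.53% lower. Among the 10 were Errfi1 at 0.83, Fkbp5 at 0.67, Ddit4 at -0.95 and Mt2 at -0.93. The balance of higher and lower calls from day 1 to day 12 depended on the scaling, since total counts and the reference genes each gave 3 higher and 2 lower there, without the calls of Per1, Tsc22d3 and Zbtb16.

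Enzymes and carriers that make, remove or hold receptor ligands were also counted. Of 25 listed, 18 were tested by edgeR, of which 2 rose and 4 fell in the first comparison. By day 12 it was 2 that had risen and 6 that had fallen, and against day 1 the day 12 calls were 4 higher and 4 lower. Over all genes 21.1%, 29.2% and 19.1% were called in these comparisons. With total counts and with scaling by the reference genes the last count became 4 higher and 2 lower, without Aldh1a1 and Dhrs3, and the reference genes lost the day 1 calls of Aldh1a1 and Crabp2. Their median log2 fold change was -0.31 at day 1 and -0.31 at day 12. Dio2, which activates thyroid hormone inside cells, was at 164.2, 213.1 and 73.3 CPM and fell at day 12, at -1.16 ± 0.11 (log2, SE) against day 0 and at -1.54 against day 1. For oxysterols, Cyp27a1, the sterol 27-hydroxylase, fell by day 12, at -1.60 ± 0.099, while Ch25h, the cholesterol 25-hydroxylase, was called lower at day 1, at -0.66 ± 0.060, and higher at day 12, at 1.49 ± 0.056. From day 1 to day 12 Cyp27a1 stood at -1.30 and Ch25h at 2.15. Of the exon bases of Ch25h, 11.5% are shared with Gm26902 on the opposite strand.

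For retinoids, Crabp2, which hands retinoic acid to its receptors, rose at day 12, at 1.86 ± 0.17, and Aldh1a1, a retinaldehyde dehydrogenase, rose at day 1, at 0.60 ± 0.054, a call lost with scaling by the reference genes. For steroids, Srd5a1, a steroid 5-alpha reductase, fell at day 1, at -1.37 ± 0.15, and was higher at day 12 than at day 1, at 1.82, with 16.4% of its exon bases shared with Gm17108 on the same strand. Hsd11b2, which inactivates glucocorticoids, was called lower at day 1, at -0.79 ± 0.21, and at day 12, at -0.95 ± 0.21, from a mean of 1.22 CPM at day 0. Of 18 coregulators edgeR called 0 higher and 2 lower at day 1, and by day 12 there were 0 higher calls and 1 lower, where 21.1% and 29.2% of all genes were called. Those at 1 CPM or more were Carm1, a histone arginine methyltransferase, at -0.74 ± 0.036 at day 1, and the coactivator Ppargc1a, at -1.50 ± 0.16 at day 12 and -1.03 ± 0.17 from day 1 to day 12. Carm1 shares 21.1% of its exon bases with Yipf2 on the opposite strand. Beside the 0 higher, 3 coregulators were higher at an unadjusted p under 0.05 in edgeR at day 1 and 6 at day 12, and DESeq2 called 0 higher at either day. By the adjusted p alone, without the fold limit, 50% of the 18 passed at day 1 and 77.8% at day 12, beside 71.5% and 76.6% of all genes. The corepressor Ncor1 stood at 196.1, 195.3 and 197.4 CPM and was not called.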

How the data were processed

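The authors aligned reads to mm10 with TopHat2 2.0.13 and Bowtie2 2.2.1, per the labels, and counted them per gene with HTSeq. The deposited raw counts were used here, and whether counting used strand was not stated. The authors' deposited regularized log2 values and their tables of fold changes and p-values from DESeq2 were not used.

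Groups came from the labels. Counts of 18804 genes in 15 libraries were filtered with filterByExpr (minimum count 10), scaled by TMM and tested with edgeR 4.0.16 (R 4.3.3) by quasi-likelihood, in a single fit without covariates. A gene was called at an adjusted p under 0.05 (Benjamini-Hochberg, over 14293 genes) and a fold over 1.5. DESeq2 1.42.0, other scalings, no filter, a replicate block, library series and leaving out each library were alternatives. The library numbers in the labels fell into a larger series of 11 libraries and a smaller series of 4, and what set these apart was not stated. Total counts per library ranged from 64648178 to 133270973. RPKM used the union of GENCODE exons in GRCm38 (mm10), and promoters came from RefSeq (GRCm38.p6), leaving out windows on chromosome 18.

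The members, gene lists and tests were chosen with earlier results of these data known. Values of every library are given for members called in at least 1 comparison with a mean of at least 1 CPM in a group, and other members by ranges, counts or means. From each list up to 4 called genes per comparison are named, by size of the fold change, among those at 1 CPM or more; Ncor1 was added after its values were seen, and some genes that this rule names are not reported here. Correlations between the deviations of same-numbered libraries were small (-0.0255 to 0.0436 across genes), so numbers were not taken as pairs. The same number was still the best match for libraries 2, 3, 4 and 5 between days 1 and 12, but only for library 5 between days 0 and 12. A replicate block changed no call.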

Additional observations from a re-analysis of the deposited data

Results flagged for a closer look

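In 9 of 84 sets of 5 libraries (28 receptors in 3 groups), the highest or lowest library stood apart from the other 4 by Dixon's test at the 95% level. Chance flags about 1 in 20 sets. Rxrb stood apart in day 0 library 3, at 43.9 CPM, and in day 1 library 3, at 34.1 CPM. Rara did so in day 0 library 3, at 86.9 CPM, and in day 1 library 1, at 71.2 CPM. Thrb was at 26.2 CPM and Nr3c1 at 189.1 CPM in day 0 library 5. Nr6a1 was at 3.67 CPM in day 1 library 5, Esr1 at 10.2 CPM in day 12 library 2 and Rarb at 0.299 CPM in day 12 library 4.

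The effect at day 12 differed from that at day 1 for the 8 receptors called by edgeR's test of day 12 against day 1, which cancels the shared day 0 libraries. The difference of the log2 fold changes was 1.21 for Ppara and 0.68 for Nr2f1, which had been lower at day 1, and 0.78 for Nr2f2, which was called at neither day against day 0. It was -0.80 for Nr4a1 and -1.23 for Nr4a3, which had been higher at day 1, and -0.76 for Nr4a2, -0.70 for Thrb and -0.95 for Esr1, which were lower at day 12.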

How the results depend on the processing

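The counts of receptors called were the same to within 1.5 times under all alternatives except for these. With the adjusted p alone, 5 receptors were higher and 13 lower at day 1, 7 and 16 at day 12, and 8 and 13 from day 1 to day 12. With total counts as scaling, 1 was higher and 3 lower at day 12. Calls lost with total counts were Nr1h3, Rxrg, Rarb and Thrb at day 12, Nr2f1 at day 1 and Thrb from day 1 to day 12, and DESeq2 lost Rarb alone, at -1.12. The day 12 call of Rarb was also lost with the reference genes, at -1.08, with no filter, at -1.10, and in the larger library series alone, at -1.08. The replicate block gave the same counts of calls (2 and 4, 0 and 7, 3 and 5), as did the library series as covariate, and neither changed a call. Leaving out 1 library gave 2 higher and 3 to 4 lower at day 1, 0 higher and 5 to 8 lower at day 12, and 3 to 4 higher and 5 to 6 lower from day 1 to day 12. Over the 28 receptors alone the lower calls at day 12 were 5 to 7. Esrrg, below the filter in the full set, passed it in some of these fits and was then called lower at day 12, at -4.01 to -2.16, as it was with no filter, at -2.48. The direction changed only for receptors that were not called in that comparison, as log2 fold changes follow. With total counts, day 12 against day 0 became 0.028 for Nr1h2, 0.033 for Rxra, 0.083 for Thra, 0.15 for Nr3c1, 0.012 for Nr6a1 and 0.017 for Nr4a3, and day 12 against day 1 became 0.074 for Ppard, 0.066 for Nr1h2, 0.076 for Rxrb, 0.10 for Nr3c1 and 0.051 for Nr3c2. With the reference genes, day 12 against day 1 became 0.056 for Ppard, 0.048 for Nr1h2, 0.056 for Rxrb, 0.086 for Nr3c1 and 0.033 for Nr3c2, day 1 against day 0 became -0.037 for Thrb, -0.072 for Nr3c1, -0.078 for Esr1 and -0.085 for Nr2f6, and Nr3c1 at day 12 became 0.013. Nr1h3 from day 1 to day 12 became -0.0058 with RLE size factors and with DESeq2, and over left-out libraries ranged from -0.033 to 0.046. Nr2f6 at day 1 became -0.0084 with the library series as covariate, -0.044 in the larger series alone, and over left-out libraries -0.023 to 0.047. Nr4a3 at day 12 became 0.072 in the larger series alone, and over left-out libraries it ranged from -0.48 to 0.050, above 0 without day 0 library 5. Nr5a2 at day 1 ranged from -0.11 to 0.77, below 0 without day 1 library 4. The causes were not tested. Depth limited Rarb and Nr5a2, with at most 26 counts in a library, and Nr4a3, Ppara and Rxrg, with at most 157, 232 and 161.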
